A study of Mus musculus with 11 samples.

Results

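The regions described here were open in nearly every Prdm3/16 knockout library and were found, mostly as weak peaks, in only 1 or 2 control libraries. Each of 11 ATAC-seq peak lists of fetal mouse lung epithelium was reduced to its 72935 rows with the highest -log10 p, the significance the peak caller gave each peak. Peaks on chromosomes 1 to 19 that overlapped were merged over all lists, which gave 82678 regions. A region was a member where it had a peak in 4 or 5 of 5 knockout lists and in 1 or 2 of 6 control lists. There were 1891 members, 2.29% of all regions, covering 1.37 Mb. The members were thus chosen by the presence of peaks, so their presence and strength by genotype are described and not tested.

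The study mapped open chromatin in lung epithelial cells of mouse fetuses at E17.5, late in gestation, when alveolar cell types are forming. Cells of dissociated lungs were enriched with magnetic beads against EpCAM, a surface protein of epithelium. The series compared 6 control libraries with 5 libraries labelled Prdm3/16KO, and its title puts the question as how PRDM3 and PRDM16 shape the accessibility that NKX2-1, the homeobox factor of lung epithelium, works in. Build mm10 was used throughout. The knockout line combined floxed alleles of Prdm16 (Prdm16 flox/flox) and of Prdm3 (Prdm3 flox/flox, gene symbol Mecom) with ShhCre, a Cre expressed from the Shh locus and active in the epithelium of the lung and of other organs from early in development. Breeding males were Prdm3fl/fl Prdm16fl/wt ShhCre+ and passed on the Cre, and the females were Prdm3fl/fl Prdm16fl/fl. The sources used here give neither the genotype of the controls beyond the word control nor that of each knockout fetus, and they leave unsaid whether libraries are from different animals. Any p-value therefore measures only the spread between these libraries.

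ATAC-seq uses a transposase that cuts where DNA is not wrapped tightly in nucleosomes, so that peaks mark promoters, enhancers and other regulatory elements. Promoters of widely used genes are open in most cells, while enhancers far from gene starts tend to be open in particular cell types or states. PRDM3 and PRDM16 are zinc finger proteins of the PRDM family that bind DNA and act on transcription and chromatin, with repressing and activating roles described in other tissues.

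Most members lay away from gene starts, and the sequence of those was not available here. Promoter sequence from RefSeq (assembly GRCm38.p6, the same coordinates as mm10) covered 66 members, which overlapped at least 150 bp of the 250 bases before 71 annotated gene starts, those of 48 protein-coding genes among them. The following 6 windows were chosen after their values were seen, to show covered promoters that range from strong to weak in knockouts and from few to many CpG. They are chr3:79852769-79853018 of Tmem144 (minus strand), encoding a transmembrane protein, chr14:52036110-52036359 of Olfr221 (minus strand), an odorant receptor, and chr8:123411303-123411552 of Tubb3 (plus strand), the beta tubulin of neurons. The others are chr16:29541484-29541733 of Atp13a4 (minus strand), a cation-transporting ATPase, chr3:76074311-76074560 of Fstl5 (plus strand), a follistatin-like secreted protein, and chr6:18030446-18030695 of Wnt2 (minus strand), a Wnt ligand. Each is written 5′ to 3′ on the strand of its gene and ends just before the annotated start. Capitals mark matches on either strand to any of 7 short motifs that are spelled out below.
Tmem144: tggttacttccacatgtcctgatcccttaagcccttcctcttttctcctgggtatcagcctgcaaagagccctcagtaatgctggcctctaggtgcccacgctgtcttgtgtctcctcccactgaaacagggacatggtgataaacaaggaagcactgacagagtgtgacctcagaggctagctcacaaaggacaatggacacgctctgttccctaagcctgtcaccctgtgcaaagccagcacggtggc
Olfr221: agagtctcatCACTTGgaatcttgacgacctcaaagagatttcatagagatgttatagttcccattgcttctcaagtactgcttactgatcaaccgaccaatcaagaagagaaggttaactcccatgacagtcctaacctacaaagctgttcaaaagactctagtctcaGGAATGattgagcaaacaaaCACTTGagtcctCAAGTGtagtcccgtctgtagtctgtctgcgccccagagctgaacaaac
Tubb3: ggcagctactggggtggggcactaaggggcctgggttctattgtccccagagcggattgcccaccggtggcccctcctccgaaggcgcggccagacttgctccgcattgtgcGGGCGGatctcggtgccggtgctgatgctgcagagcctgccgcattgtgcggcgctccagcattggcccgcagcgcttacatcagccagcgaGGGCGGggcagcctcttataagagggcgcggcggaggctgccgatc
Atp13a4: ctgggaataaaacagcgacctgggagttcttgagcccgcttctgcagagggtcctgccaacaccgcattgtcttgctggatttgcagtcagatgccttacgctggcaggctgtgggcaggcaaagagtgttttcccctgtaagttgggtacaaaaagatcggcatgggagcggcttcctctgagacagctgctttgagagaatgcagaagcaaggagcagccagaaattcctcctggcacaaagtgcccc
Fstl5: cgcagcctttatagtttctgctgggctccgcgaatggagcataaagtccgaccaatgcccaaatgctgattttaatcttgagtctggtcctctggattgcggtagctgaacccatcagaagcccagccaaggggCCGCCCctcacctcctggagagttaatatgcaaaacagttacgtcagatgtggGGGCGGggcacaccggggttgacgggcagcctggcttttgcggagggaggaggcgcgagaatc
Wnt2: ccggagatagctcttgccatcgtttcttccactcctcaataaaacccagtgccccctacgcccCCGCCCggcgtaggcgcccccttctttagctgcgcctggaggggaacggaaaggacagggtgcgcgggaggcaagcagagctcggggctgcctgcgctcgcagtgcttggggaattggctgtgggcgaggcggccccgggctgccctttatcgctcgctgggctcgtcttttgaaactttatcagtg

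The motifs searched were TGANTCA (AP-1), GGAATG (TEAD), CAAGTG (NKX2), TGTTTAC (forkhead), GGGCGG (GC box), CCACNAGG (a CTCF core) and GACAAGATA (EVI1, the product of Mecom), each on both strands, and none contains another. GGGCGG and its reverse complement account for all capitals in the Tubb3, Fstl5 and Wnt2 windows, and the Olfr221 window holds matches to GGAATG and CAAGTG. In the windows of Tmem144 and Atp13a4 none of the 7 was found. GGGCGG was present in 38.0% of the 71 member windows, in 33.0% of all 31387 promoter windows of the table and in 64.8% of the 11772 windows under regions open in all 11 libraries. GGAATG was present in 21.1% of member windows (15 of 71) against 12.5% of all windows, and CAAGTG in 11.3% against 11.5%. TGTTTAC was found in 3 member windows (4.23%, all windows 3.21%), TGANTCA in 2 (2.82%, all windows 6.77%), CCACNAGG in 2 (2.82%, all windows 4.29%) and GACAAGATA in 0 (all windows 0.108%). A match says only that these letters stand in the window, and windows that share sequence or lie beside each other are not independent.

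Covered promoters of members were poorer in CpG than those of regions open everywhere and richer than those with no region. The median GC content was 54.4% in member windows, 62.0% in windows under regions open in all 11 and 47.2% in windows with no region. The median number of CpG was 8, 18 and 3 in the same order, and 43.7% of member windows held at least 10 CpG against 82.1% of windows under regions open in all 11. Over all 31387 windows the median was 6 CpG and 38.3% held at least 10. In 40 windows under regions of every knockout and no control these values were 4 and 0%. In 76 windows under control-leaning regions, with a peak in 5 or 6 controls and 1 knockout, they were 5 and 25%. Among the windows shown, Tubb3 held 21 CpG and Wnt2 20, while Tmem144 held 3.

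To compare libraries of unknown depth, peaks were ranked within each library by -log10 p and scored from 1, the strongest, down to almost 0, the weakest row used, and a region without a peak in a library scored 0 (the rank score). At the Tmem144 promoter the 5 knockouts scored 0.860, 0.881, 0.862, 0.908 and 0.879, control replicate 2 scored 0.122 and the other 5 controls had no peak. At the Tubb3 promoter the knockouts scored 0.603, 0.699, 0.595, 0.561 and 0.461, control replicate 1 scored 0.2002 and control replicate 4 scored 0.160. The groups did not overlap at either. At the Wnt2 promoter the knockouts scored 0.138, 0.336, 0, 0.447 and 0.418 and controls 4 and 6 scored 0.216 and 0.247, so that the groups overlapped. Knockout means ± SD (n = 5) at the remaining windows shown were 0.722 ± 0.0749 for Olfr221, 0.553 ± 0.0461 for Atp13a4 and 0.513 ± 0.0876 for Fstl5, each with a peak in 1 control of at most 0.197.

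Members with a peak numbered 746, 631, 272, 464, 159 and 515 in control replicates 1 to 6. In knockout replicates 1 to 5 they numbered 1793, 1813, 1766, 1820 and 1602. Among the controls, replicates 1 and 2 thus held the most member peaks and replicates 3 and 5 the fewest, a range from 8.41% to 39.5% of members. Knockout replicate 5, whose deposited list was the shortest, stood below the other knockouts and was the missing library in 289 of the 661 members found in 4 knockouts. Of all members, 1230 had a peak in all 5 knockouts, 995 had a peak in 1 control and 896 in 2.

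The longer control lists held further member peaks below the rows used. With all deposited rows, 995, 757, 272, 772, 159 and 916 members had a peak in control replicates 1 to 6. The gain came from controls 1, 2, 4 and 6, while controls 3 and 5 and all 5 knockouts gained none. Counted that way, 542 members (28.7%) had a peak in 1 control, 806 in 2, 460 in 3, 78 in 4 and 5 in 5, so 28.7% would fall outside the rule and none was open in all 6 controls. The weakest row used had a -log10 p of 27.5, 22.6, 10.4, 28.6, 6.59 and 35.6 in the controls and of 14.0, 11.9, 10.7, 11.99 and 2.00 in the knockouts. A control peak left out could therefore be more significant than a knockout peak that was used. The absence of a peak in a control is an absence from the rows used and says nothing about fully closed chromatin.

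**Figure D1:**
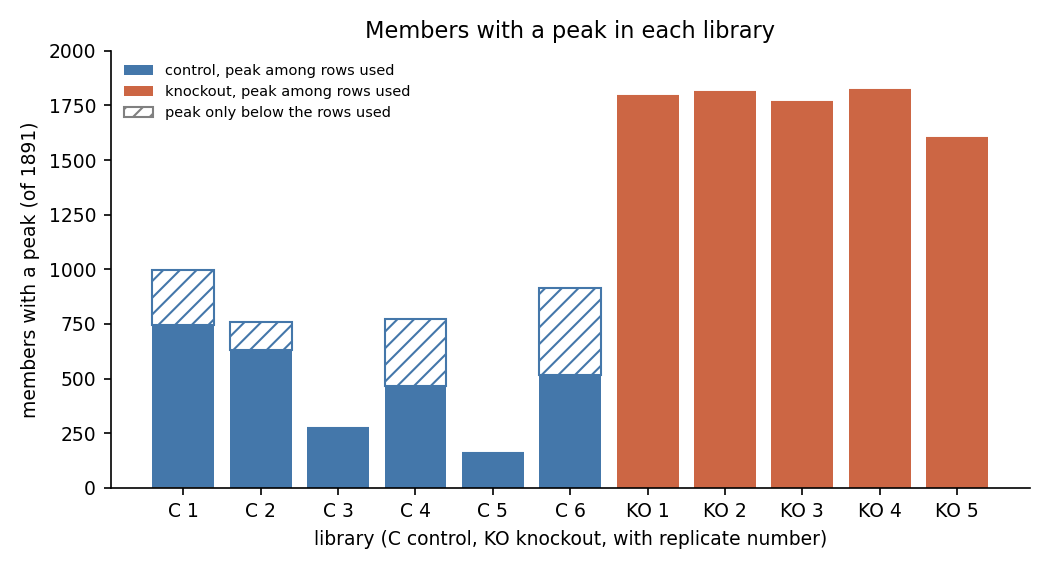
Number of the 1891 members with a peak in each library, with control (C) and knockout (KO) replicates on the horizontal axis. Solid bars count peaks among the 72935 rows used and hatched parts those found only below them. Controls range from 159 to 746 and knockouts from 1602 to 1820, and the hatched parts occur in controls 1, 2, 4 and 6.

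Where controls had a member peak it was mostly weak. The rule by itself favours this, since it takes regions missing from most control lists. The 2787 control peaks in members had a median rank score of 0.135, with an interquartile range from 0.0645 to 0.218, and 70.3% scored below 0.2. The 8794 knockout peaks in the same members had a median of 0.477, from 0.342 to 0.637, and 8.19% reached 0.8. In regions open in all 11 libraries the medians were 0.774 in controls and 0.766 in knockouts, so members were of middling rank in knockouts. Regions with a peak in every knockout and no control had a knockout median of 0.549. Weak peaks in the group with few were not particular to members. In control-leaning regions the 2020 knockout peaks had a median of 0.170, and 59.6% scored below 0.2.

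Single libraries gave the same picture. The median score of member peaks was 0.131, 0.115, 0.179, 0.108, 0.236 and 0.126 in control replicates 1 to 6, and 0.458, 0.477, 0.471, 0.470 and 0.503 in the knockouts. Control replicates 3 and 5, which held the fewest member peaks, had the highest medians among controls. Rows of these lists below the length used held only 20 and 23 intervals not already counted, so the lists ended in repeat summits of counted intervals. The fold enrichment at the summit had a median over member peaks of 8.52 ± 0.603 in the 6 controls and 10.5 ± 0.675 in the 5 knockouts (mean ± SD over libraries), against 14.5 ± 0.369 and 13.4 ± 0.649 for regions open in all 11. Member peaks were 476 ± 58.5 bp wide in controls and 557 ± 7.48 bp in knockouts, while peaks of regions open in all 11 were 753 ± 43.3 and 714 ± 12.9 bp wide.

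The weak control peak mostly sat at the place of the knockout peak. The control summit lay a median of 17.54 ± 1.96 bp from the median knockout summit of the member. Single knockout summits lay 12.8 ± 0.758 bp from the median of the other knockouts (SD, n = 6 and 5). Only peaks merged into the same region were compared, which by itself keeps the distances short. In regions open in all 11 these distances were 9.67 ± 0.816 and 9.20 ± 0.758 bp. A merged member had a median width of 696 bp, against 940 bp for regions open in all 11, where peaks of more lists were merged. Regions of every knockout and no control had 687 bp and control-leaning regions 678 bp. Of its peaks, 17.4% had more than 1 summit, against 40.8%.

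Mean knockout scores of members ran from 0.0915 to 0.989 with a median of 0.428. They reached 0.9 in 29 members, 0.8 in 120 and 0.5 in 724, and stayed below 0.2 in 132. Only 13 members had a control peak of 0.5 or more. Of the members with a peak in all 5 knockouts, 1112 of 1230 (90.4%) had every control below every knockout, beside 12.6% of the 65887 regions seen in 3 libraries or more. The rule itself pushes this share up. A limma fit of rank scores over those 65887 regions called 20.7% higher and 24.1% lower in knockouts at adjusted p below 0.05. Among members 1680 were called higher, 0 lower and 211 neither, with a median difference of 0.394 and a median SE of 0.0608, and since the rule used the same contrast nothing is read from this count. By the number of knockouts with a peak, 1222 of 1230 and 458 of 661 were called higher.

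The edge of the class was not sharp. Within it, regions with a peak in 5 knockouts and 1 control (678) had a median knockout score of 0.545, close to 0.538 for the 2933 regions in 5 knockouts and no control and to 0.536 for the 571 in 5 knockouts and 3 controls. Members in 4 knockouts and 1 control (317) had a median of 0.264, and the 356 regions just outside with 3 knockouts and 1 control had 0.151. A knockout without a peak enters these means as 0, which by itself lowers the score of regions found in fewer knockouts.

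The 12 members with the highest mean knockout score had nearest genes of varied function, some of them beyond the 100 kb used to assign genes. The highest of all, inside Amph (chromosome 13, 19121591 to 19122377), lay in the gene of amphiphysin, a membrane-bending protein of endocytosis known from synapses. The knockouts scored 0.995, 0.997, 0.996, 0.999 and 0.958 there, with a mean of 0.989 ± 0.0175 (SD, n = 5). Control replicate 2 scored 0.131 and the other 5 controls had no peak, so the groups were far apart, with a difference of 0.967.

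Among the other 11 strongest members, a pair lay on chromosome 18. Neto1 encodes an auxiliary subunit of glutamate receptors. Its member, inside the gene, scored 0.981, 0.954, 0.985, 0.978 and 0.984 in the knockouts. Control replicate 2 scored 0.0856 and was the only control with a peak among the rows used. With all deposited rows 2 controls had a peak there. Nrep is named for neuronal regeneration, and its member lay 59002 bp from the gene. It scored 0.966, 0.965, 0.971, 0.980 and 0.967 in the knockouts. Controls 1 and 2 scored 0.279 and 0.570 and the other 4 controls had none. That was the strongest control peak among the 12.

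A further 3 had Cdh11, Trib2 and Gab2 as their nearest genes. Cdh11 encodes a cadherin typical of mesenchyme, but its member on chromosome 8 (103391316 to 103392116) was 605823 bp away from the gene. The knockouts scored 0.962, 0.958, 0.977, 0.982 and 0.966 there and control replicate 1 scored 0.0725. Trib2, a pseudokinase that steers protein degradation, was the nearest gene, at 103818 bp, to a member on chromosome 12 (15920780 to 15921790) that scored 0.971, 0.976, 0.981, 0.976 and 0.985 in the knockouts. Controls 1 and 2 scored 0.0445 and 0.321. Gab2, an adaptor of growth factor receptors, held a member on chromosome 7 (97093860 to 97094999) with knockout scores of 0.950, 0.951, 0.946, 0.962 and 0.920 and 0.0840 in control replicate 2. At all 3 the groups were far apart.

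Members inside Erlin2, which encodes an endoplasmic reticulum protein, and Gbe1, the gene of the glycogen branching enzyme, had knockout means of 0.967 ± 0.00922 and 0.951 ± 0.0189. A member with a mean of 0.956 ± 0.00450 had as its nearest gene Tusc3, a subunit of the complex that adds sugar chains to new proteins, at 101948 bp and so beyond the 100 kb used to assign genes. Ncoa1, a coactivator of nuclear hormone receptors, lay 20057 bp from a member with a knockout mean of 0.966 ± 0.0205. Controls 1 and 2 both had a peak at each of these 4, the highest 0.280 at Ncoa1.

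Aim2 and Oc90 had other controls with a peak. In Aim2, a cytosolic sensor of DNA, controls 1 and 4 scored 0.165 and 0.156 and the knockouts 0.966, 0.963, 0.919, 0.943 and 0.952. In Oc90, which encodes a protein of the inner ear's otoconia, control replicate 6 scored 0.0516 and the knockouts 0.921, 0.945, 0.950, 0.949 and 0.953.

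**Figure D2:**
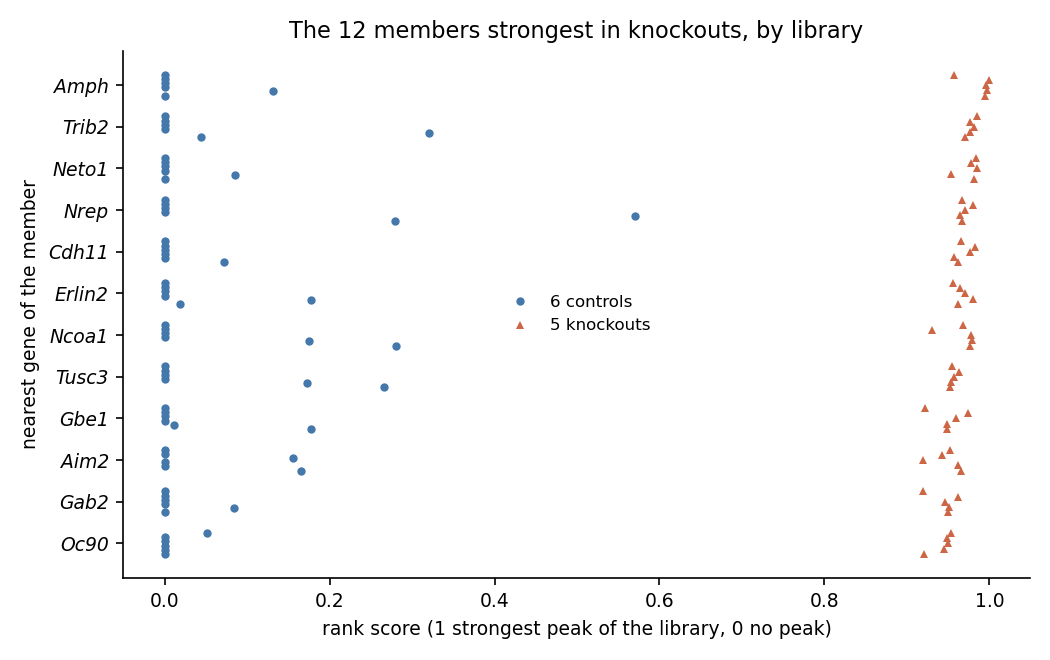
Rank score in each library of the 12 members with the highest mean knockout score, named by their nearest gene. Circles are the 6 controls and triangles the 5 knockouts, and the vertical offset within a row only separates the points. All knockout scores are at least 0.919 and the highest control score is 0.570, near Nrep.

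The weakest members looked different. The 5 with the lowest mean knockout score lay near or in Pde8a, Sema5a, Mkrn3, Slc16a7 and Igfbp2, with means from 0.0915 to 0.0974, and each had a peak in 4 knockouts. Near Mkrn3 (chromosome 7, 62400104 to 62400496) control replicate 3 scored 0.438, above all knockouts at 0.106, 0.0936, 0, 0.0571 and 0.222. Near Igfbp2, a secreted binder of insulin-like growth factors found in alveolar type 1 cells, knockouts scored 0.151, 0.146, 0.131, 0.0589 and 0 and control replicate 6 scored 0.0581. The groups overlapped at all 5, and most of their peaks were close to the weakest rows used.

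Which control carried the peak changed with the strength of the member. Among the 132 members with a mean knockout score below 0.2, control replicate 1 had a peak in 26.5% and control replicate 2 in 29.5%. Among the 120 members from 0.8 upwards these shares were 50.0% and 51.7%. For controls 3, 4, 5 and 6 the shares went the other way, from 18.2% to 7.50%, from 27.3% to 15.0%, from 11.4% to 7.50% and from 32.6% to 14.2%. Either of controls 1 and 2 had a peak in 51.5% of the weakest and 81.7% of the strongest members, and any of the other 4 controls in 73.5% and 39.2%. Since the rule allows each member 1 or 2 control peaks, the shares of the 6 controls are tied to each other, and a rise in some brings a fall in others.

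The strongest 12 members show the same order. Control replicate 1 had a peak in 8 of them, replicate 2 in 9, replicates 4 and 6 in 1 each and replicates 3 and 5 in 0. With the lists as deposited the shares of the weakest and strongest members were 40.9% and 60.8% for control replicate 1, 37.1% and 60% for replicate 2, 47.0% and 34.2% for replicate 4, and 49.2% and 41.7% for replicate 6. The directions were those seen with the rows used, in members still chosen by those rows. Within members that a control did have, its own score did not follow the knockout mean, with Spearman rho from -0.0732 to 0.0124 over members in the 6 controls. These shares describe single libraries, and the labels give no batch or other property that sets controls 1 and 2 apart.

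**Figure D3:**
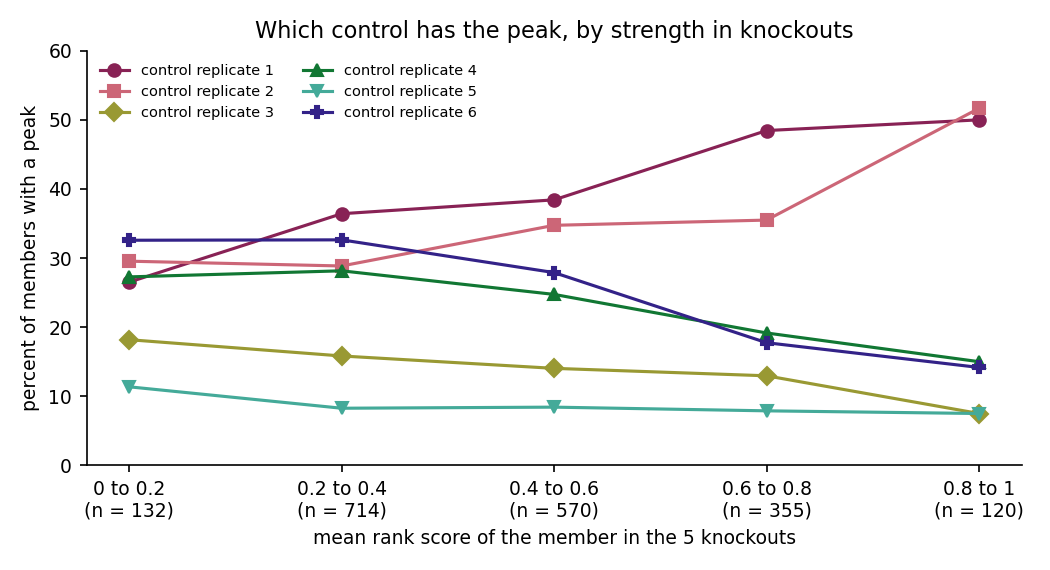
Percent of members with a peak in each of the 6 controls, for 5 ranges of the mean knockout score, with the number of members in each range below the axis. Lines for controls 1 and 2 end at 50.0% and 51.7% among the strongest members, while those for controls 3 to 6 end between 7.50% and 15.0%.

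Members were mainly distal. Only 120 of 1891 (6.35%) lay at gene ends, meaning within 1 kb of the start or end of a protein-coding gene, 914 (48.3%) inside gene bodies, 571 (30.2%) between genes within 100 kb of one, and 286 (15.1%) farther away. Of regions open in all 11 libraries 36.8% lay at gene ends and 6.99% beyond 100 kb. Members with a knockout score of 0.5 or more were at gene ends in 4.14% and beyond 100 kb in 18.9%, against 7.71% and 12.8% of the weaker ones. The share of members at gene ends was 12.3% with lists of 36467 rows and 11.6% with 3 kb around gene ends. These are counts of regions and not of replicates, so no test was made.

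In their shares at gene ends and beyond 100 kb members stood between regions of every knockout and control-leaning regions. The former, with a peak in every knockout and no control, were at gene ends in 2.80% and beyond 100 kb in 19.98%. The latter, with a peak in 5 or 6 controls and 1 knockout, were there in 6.98% and 10.3%. An annotated start in the RefSeq promoter table, which has no entry on chromosome 18, lay inside 74 of the 1822 members on the other chromosomes (4.06%), against 33.3% of regions open in all 11, 1.43% of regions of every knockout and 4.00% of control-leaning regions. The median distance to the nearest such start was 28562 bp for members and 9226 bp for regions open in all 11. That table also lacks gene starts on other chromosomes, and only 6 of 12 epithelial markers had a promoter window. The member inside Erlin2 on chromosome 8, for example, lay 212455 bp from the nearest listed start. These shares and distances therefore hold for listed starts only. Members at gene ends had a median knockout score of 0.345 and those beyond 100 kb of 0.493.

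**Figure D4:**
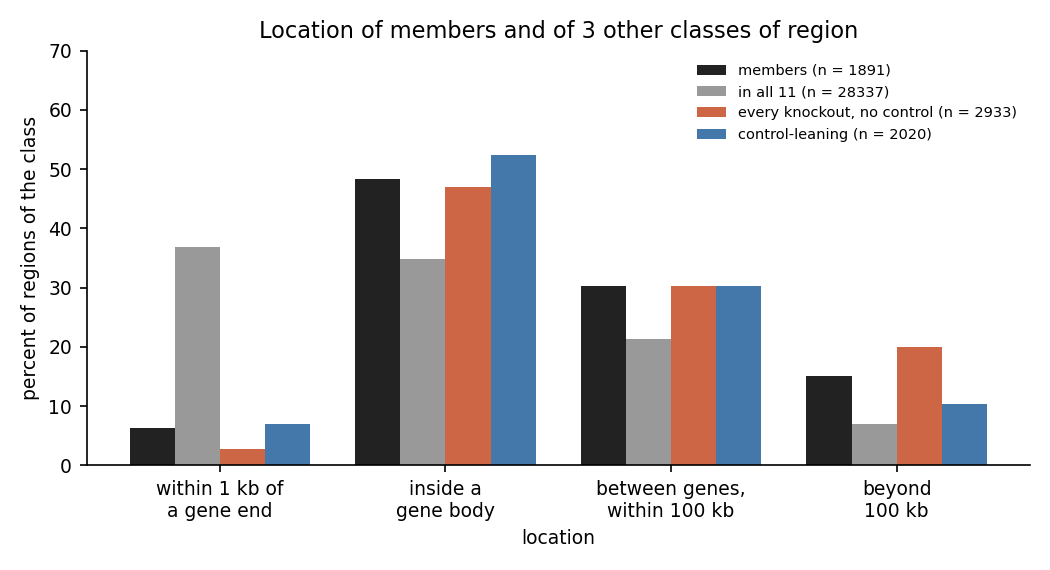
Percent of regions in 4 location classes for members, regions open in all 11 libraries, regions in every knockout and no control, and control-leaning regions, with the number of regions in the legend. Members show 6.35% at gene ends, where regions open in all 11 show 36.8%.

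Members were spread over all 19 chromosomes, from 1.90% of the regions of chromosome 8 to 2.76% of those of chromosome 3. The median distance to the nearest other member was 321 kb, so most stood alone. Regions open in all 11 libraries were much nearer, with a median of 18.1 kb, and 58.2% of members had one within 25 kb. That class is far larger, with 28337 regions against 1891, which by itself shortens the distance. Its own regions lay a median of 317 kb from the nearest member and 15.5 kb from each other.

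The 1605 members within 100 kb of a protein-coding gene were assigned to 1380 genes. Of these, 1194 genes had 1 member, 152 had 2, 30 had 3, 3 had 4 and 1 had 5. Genes with a member were long, with a median length of 78.7 kb, and the 34 with 3 or more had a median of 351 kb, while all genes with a region had one of 23.8 kb. Long genes can hold more regions of any class.

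Fto, an RNA demethylase gene known for its link to body weight, had the most members, 5 of its 34 regions. All were inside the gene. The strongest, on chromosome 8 from 91535780 to 91536461, scored 0.602, 0.621, 0.725, 0.722 and 0.784 in the knockouts and 0.0496 and 0.137 in controls 1 and 2. Another, from 91565681 to 91566459, scored 0.607, 0.676, 0.665, 0.745 and 0.679, with 0.174 in control replicate 3 alone. At both the groups were apart, whereas at the weakest, from 91395481 to 91396060, controls 1 and 2 scored 0.352 and 0.363 and the knockouts 0.403, 0.230, 0.361, 0.408 and 0, so that they overlapped.

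Lmo7, which encodes an actin- and junction-associated LIM protein and is on the list of alveolar type 1 genes, had 4 members of 37 regions, all inside the gene. Of these, 2 lay close together (chromosome 14, 101782012 to 101782583 and 101783409 to 101783921) and share their surroundings. The first scored 0.672, 0.717, 0.599, 0.544 and 0.403 in the knockouts and 0.221 and 0.135 in controls 2 and 6. The third Lmo7 member, from 101797877 to 101798368, had a knockout mean of 0.602 ± 0.0853 and a peak of 0.0404 in control replicate 4 alone. At the fourth, control replicate 3 scored 0.391, within the knockout range of 0 to 0.423.

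Zfp704, a zinc finger gene, and Ctnnd2, encoding a catenin of neuronal junctions, had 4 weaker members each. Zfp704 members had knockout means from 0.275 to 0.335 and each missed a peak in 1 knockout, replicate 3 in a pair of them and replicates 4 and 5 in 1 each. Ctnnd2 members had means from 0.222 to 0.346. At the Ctnnd2 member from 30338495 control replicate 2 scored 0.359, above every knockout. The groups thus overlapped there, though the mean was 0.222 in knockouts and 0.0829 in controls.

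Of the 30 genes with 3 members, those with the highest mean member score were taken, so the strength of their members follows from that choice. In Ak5, an adenylate kinase gene, the knockout means were 0.878 ± 0.0256, 0.858 ± 0.0328 and 0.271 ± 0.0589 (SD, n = 5). In Atg7, an essential autophagy gene, they were 0.888 ± 0.0444, 0.447 ± 0.0811 and 0.786 ± 0.0501, each with peaks in a pair of controls. In Ube2e2, a ubiquitin-conjugating enzyme gene, they were 0.852 ± 0.0388, 0.839 ± 0.0351 and 0.313 ± 0.104.

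Alveolar type 1 cells form the thin gas exchange surface and alveolar type 2 cells make surfactant. On the list of 25 alveolar type 1 genes, 15 of 286 regions were members (5.24%), beside 2.17% of all 74024 regions assigned to a gene. They came from 8 genes, Lmo7 (4), Vegfa, Tead1, Scnn1g and Sema3a (2 each) and Igfbp2, Pdpn and Rtkn2 (1 each). Since 4 of the 15 belonged to Lmo7, the members are not independent, and a share of a list was not tested. Regions of every knockout and no control made up 2.10% of the regions of this list, against 3.17% of all assigned regions. Of its 236 fitted regions limma called 57 higher (24.2%) and 52 lower (22.0%), beside 19.6% and 23.7% of all assigned ones.

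Vegfa encodes the growth factor for alveolar capillaries. Its stronger member, 65664 bp away on chromosome 17 (45950603 to 45951329), scored 0.758, 0.768, 0.721, 0.693 and 0.610 in the knockouts and 0.133 in control replicate 2. Tead1 encodes a DNA-binding partner of YAP in the Hippo pathway. Its stronger member, inside the gene, scored 0.606, 0.693, 0.581, 0.698 and 0.783 in the knockouts and 0.189 in control replicate 1. No other control had a peak at either, and the groups did not overlap.

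Of 135 regions of alveolar type 2 genes, 3 were members (2.22%), 1 near Slc34a2, the phosphate transporter of type 2 cells, and 2 near Scd1, a fatty acid desaturase. The Slc34a2 member lay 6571 bp from the gene (chromosome 5, 53041729 to 53042782) and scored 0.802, 0.842, 0.831, 0.796 and 0.733 in the knockouts and 0.134 in control replicate 2. The stronger Scd1 member scored 0.589, 0.660, 0.558, 0.552 and 0.529, with 0.0746 in control replicate 2. Over all 114 fitted regions of that list, 24 were called higher and 48 lower by limma, so the list as a whole had more lower than higher regions. All fitted regions assigned to a gene were called higher in 19.6% and lower in 23.7%.

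Epithelial genes and lung transcription factors had a few members each. Of 85 regions of general epithelial genes 3 were members (3.53%), near Epcam, the gene of the selection marker, near Krt8 and inside Cdh1, the epithelial cadherin. The Epcam member lay 71825 bp from the gene and scored 0.684, 0.637, 0.693, 0.767 and 0.477 in the knockouts and 0.0474 in control replicate 1. Of 531 regions of 30 lung epithelial transcription factors 10 were members (1.88%), 3 of Foxp2, a pair each of Nfia, Nfib and Elf5, and 1 of Foxa2. The strongest, 91472 bp from Nfib, a nuclear factor I gene needed for lung maturation, scored 0.668, 0.740, 0.749, 0.821 and 0.841 in the knockouts and 0.0311 in control replicate 4.

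Of the genes that the study targeted or names, Mecom, Prdm16 and Nkx2-1 had no member. In the PRDM family 4 of 184 regions were members (2.17%), among them 2 of Prdm10 and 1 of Prdm1. The stronger Prdm10 member, inside the gene, scored 0.698, 0.675, 0.658, 0.702 and 0.625 in the knockouts and 0.105 and 0.167 in controls 4 and 5. Near Prdm1, the gene of the repressor BLIMP1, only control replicate 5 had a peak, of 0.230, and the knockouts scored 0.434, 0.591, 0.576, 0.527 and 0.564.

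Signalling lists held small numbers of members. They made up 5 of 333 regions of Wnt genes (1.502%), 4 of 365 of BMP and TGF-beta genes (1.10%), 3 of 207 of FGF genes (1.45%), 3 of 228 of Notch genes (1.32%) and 5 of 228 of Hippo genes (2.19%). Ligand genes among them were Wnt2, Bmp2, Fgf9, Jag1 and Jag2. The Bmp2 member, 43409 bp from the gene, scored 0.810, 0.736, 0.825, 0.793 and 0.695 in the knockouts and 0.406 in control replicate 1. The Fgf9 member scored 0.719, 0.656, 0.636, 0.633 and 0.640 in the knockouts and 0.0663 and 0.328 in controls 1 and 5. In both the knockouts stood above all controls.

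Receptors, inhibitors and downstream genes made up the others. A member 4320 bp from Smad4, the shared mediator of BMP and TGF-beta signals, had a knockout mean of 0.656 ± 0.0457 and 0.225 in control replicate 1. Near Dusp6, a phosphatase that limits FGF signalling, the mean was 0.638 ± 0.0682, and near Dkk2, a Wnt antagonist, 0.575 ± 0.0450. Inside Notch2, a Notch receptor, it was 0.458 ± 0.0270, and inside Tead4 it was 0.535 ± 0.0852.

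Axon guidance genes had 14 members of 558 regions (2.51%) and synaptic and neuronal adhesion genes 17 of 449 (3.79%), in 13 of 32 genes with a region. Beside Neto1, the strongest of the latter was inside Cntnap2, a contactin-associated adhesion gene, with knockout scores of 0.809, 0.799, 0.828, 0.855 and 0.875 and scores of 0.301 and 0.411 in controls 5 and 6. Among guidance genes, members inside Efna5, an ephrin ligand, and Robo1, a Slit receptor, had knockout means of 0.779 ± 0.0257 and 0.750 ± 0.0863, each with a peak in control replicate 1 alone. Many of these genes are long, and the guidance list shares Sema3a with the alveolar type 1 list.

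Marker genes of other cell types had 0 to 4 members per list, to be read against the 2.17% of all assigned regions. Endothelial genes had 2 members of 84 regions (2.38%), mesenchymal genes 4 of 57 (7.02%), blood and immune genes 1 of 19 (5.26%), multiciliated genes 1 of 75 (1.33%), neuroendocrine genes 1 of 44 (2.27%) and basal cell genes 1 of 41 (2.44%). Airway secretory genes had 0 of 36 and gut endoderm genes 0 of 62. Control-leaning regions also made up 4 of the 57 mesenchymal regions (7.02%), against 2.45% of all assigned regions. Of 47 fitted mesenchymal regions limma called 11 higher and 11 lower. The member inside Tek, the endothelial angiopoietin receptor, scored 0.851, 0.837, 0.879, 0.889 and 0.818 in the knockouts and 0.190 in control replicate 1. A member 65451 bp from Zeb1, a repressor of epithelial genes, had a knockout mean of 0.756 ± 0.0369 and one 92344 bp from Meox2, a mesodermal homeobox gene, 0.718 ± 0.0466.

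Promoters of marker genes served to check the labelled cell type. The 6 epithelial markers with a promoter window, Epcam, Cldn4, Cldn7, Krt8, Krt18 and Elf3, were open in all 11 libraries. Of 7 blood and immune markers none was open in all 11, and 6, Ptprc and Cd3e among them, had no region. Of 8 endothelial markers 4 were open in all 11 (Kdr, Cldn5, Erg and Flt1) and 2 had no region (Tie1 and Emcn). Of 9 mesenchymal markers 2 were open in all 11 (Col1a2 and Twist1) and 5 had no region (Col3a1, Pdgfra, Tcf21, Acta2 and Tbx4). None of these windows lay in a member, and the part of non-epithelial cells in the member peaks was not tested.

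Regions open in all 11 libraries, which the rule did not select, were compared near members and elsewhere. Nearness still depends on members that were chosen by genotype in these libraries, and the permutations did not choose them anew, so the test is not independent of the rule and its p-values take the members as given. There were 1884 regions open in all 11 libraries within 25 kb of a member and 26453 farther away. Near members their mean rank score was 0.723 in controls and 0.725 in knockouts, and elsewhere 0.741 and 0.735. The mean near members minus the mean elsewhere was -0.0158, -0.0132, -0.0192, -0.0184, -0.0178 and -0.0253 in control replicates 1 to 6, and -0.00790, -0.00919, -0.0123, -0.00938 and -0.0130 in the knockouts. All 11 values were negative, and each knockout was nearer to 0 than every control.

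The group means were -0.0183 ± 0.00404 and -0.0103 ± 0.00218 (SD, n = 6 and 5), a difference of 0.00793 (two-sided exact permutation p = 0.00433, and 0.0130 adjusted over 3 classes, with a smallest possible p of 0.00216). Around regions of every knockout and no control the difference was 0.00295 (exact permutation p = 0.0563, adjusted p = 0.0844), and around control-leaning regions it was 0.000479 (exact permutation p = 0.892), but members were not tested against these classes. In size the difference was under 0.01 of the score range, and limma called 18.4% of the near regions higher and 20.5% lower, against 15.6% and 20.7% of all regions open in all 11. It turned to -0.00104 with lists of 36467 rows and to -0.00164 with ranking by fold enrichment (exact permutation p = 0.755 and 0.673), and was 0.00288 with the lists as deposited and 0.00617 without control and knockout replicates 5 (exact permutation p = 0.0693 and 0.0635). The direction was thus not kept under the first pair of these alternatives, and the call under none of the 4.

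**Figure D5:**
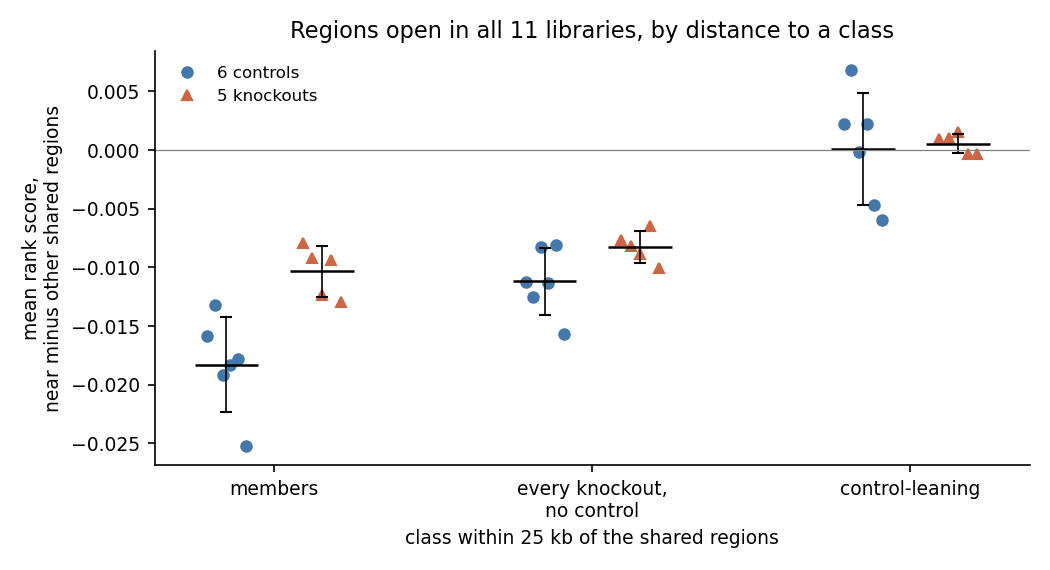
Mean rank score of regions open in all 11 libraries within 25 kb of a class, minus the mean of the other such regions, for members, regions in every knockout and no control, and control-leaning regions. Each circle is a control and each triangle a knockout library, with bars at the mean ± SD. Near members the controls average -0.0183 and the knockouts -0.0103.

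The mean score in knockouts minus that in controls, here without subtracting other regions, was also taken by distance from the nearest member. It was -0.00556 for the 390 shared regions within 5 kb, 0.00929 for the 429 from 5 to 10 kb, 0.00269 for the 1065 from 10 to 25 kb and 0.00257 for the 1495 from 25 to 50 kb. Farther out it was -0.00289 for the 2720 from 50 to 100 kb, -0.00535 for the 6111 from 100 to 250 kb and -0.00666 for the 16127 beyond. The values thus fell with distance from 5 kb outwards, and the nearest regions stood apart from that order. Gene ends made up 28.2% of the nearest regions and 39.0% of the farthest.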

How the data were processed

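Peak lists of 6 control and 5 knockout ATAC-seq libraries were used, 1 per library. Per the submitters' processing notes, build mm10, MACS2, DiffBind 3 and deepTools were involved. The aligner, the calling options and the roles of these tools are not given in the sources used, and the layout shows 1 row per summit. The authors' deposited lists hold for each peak a fold enrichment (a ratio), a -log10 p and a -log10 q, made within each library, and a score column that was not used here. Depth is unknown, so values were turned into ranks within a library.

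The strongest 72935 rows of each list by -log10 p were kept, then chromosomes 1 to 19, and intervals sharing at least 1 bp were merged. A region's rank score in a library is that of its best peak, or 0. Regions were assigned to the nearest of 20665 protein-coding genes within 100 kb, and location classes use 1 kb around either gene end. Scores of regions in at least 3 libraries were compared with limma 3.58.1 (trend and robust, Benjamini-Hochberg adjusted p below 0.05) in R 4.3.3, a fit tested on simulated data, and single values with exact permutation tests. Python 3.11.15, numpy 2.4.6, pandas 2.3.3 and matplotlib 3.10.9 did the rest. Of 413 gene symbols on 20 lists, 406 matched.

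Members, gene lists and tests were chosen with earlier results of these data known. Named are the 12 strongest and 5 weakest members, the 8 genes with most members (ties, as among the 30 genes with 3, broken by the higher mean member score), up to 2 members of each list and any at Mecom, Prdm16 and Nkx2-1. Some of these are not reported here. Promoter windows and other genes were picked after their values were seen. Replicate numbers were not used as pairs in the main tests. Correlations of same-numbered deviations ran from -0.0172 to 0.0579. They exceeded the highest with another knockout at replicates 1 (0.0579 against 0.0136) and 5 (0.0424 against 0.00452), but not at 2, 3 and 4. Values this small do not settle whether libraries were paired. Alternatives covered list length, ranking, merging, distances, the fit and leaving out libraries. Analyses needing read counts or the genome sequence were not made here.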

Additional observations from a re-analysis of the deposited data

Results flagged for a closer look

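Among 71 groups of 5 or 6 libraries examined, 8 had 1 library far from the others by Dixon's ratio. Its cut-off gives about 1 in 20 for independent, normally distributed values. Most groups were rank scores of members picked by score or gene, so the count is not set against chance. Knockout replicate 5 had a peak in 1602 members, below the other knockouts, both with the rows used and with the lists as deposited. The knockout counts are the same in both, so this library was counted for 1 fact in 2 groups. Scores of single knockouts stood apart at 6 members. Knockout replicate 5 was low at the Amph member (0.958), replicate 2 at the Neto1 member (0.954), replicate 4 at the Ncoa1 member (0.930) and replicate 1 at the Oc90 member (0.921). Replicate 1 was also low at an Ak5 member (0.801) and high at the Fgf9 member (0.719). All of these knockout scores remained above every control score at the same member.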

How the results depend on the processing

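The number of members was 2085 to 2353 without 1 library in turn, where fewer libraries make the rule easier to meet, and 1078 with lists of 36467 rows. The latter shared only 7 members with those described. With the lists as deposited 1347 (71.2%) were found again, and with 1 row per interval, an alternative added after seeing the data, 430 (22.7%), so single members depend on how rows are counted. The share at gene ends was 12.3% with lists of 36467 rows, 5.04% as deposited, 7.81% ranked by fold, 8.77% with 1 row per interval, 7.72% without control and knockout replicates 5 and 11.6% with 3 kb, and 6.56% to 7.48% without 1 library. Beyond 100 kb it was 11.97% with 36467 rows and 14.1% to 15.2% without 1 library. Regions open in all 11 stood at 36.8% at the settings used.

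The difference near members reversed to -0.00104 with 36467 rows, -0.00164 ranked by fold and -0.000646 within 5 kb, with exact permutation p of 0.755, 0.673 and 0.747. It was 0.00288 as deposited, 0.00617 without both replicates 5 and 0.00654 in a replicate block of 5 pairs (exact permutation p = 0.0693, 0.0635 and 0.0625, the last the smallest possible). Without 1 library it was 0.00535 to 0.00998. The cause was not tested. Regions called by limma numbered 29533, and 26954 to 28341 without 1 library. Without control replicate 6 they numbered 27550, of them 1631 members. With the replicate block added they numbered 27278, of them 1610 members. Higher against lower calls were 13634 and 15899, 14494 and 15159 with centred scores, and 10498 and 21417 as deposited. Depth is unknown, so weak control peaks and their absence cannot be told from sequencing depth.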
